A study of Mus musculus with 54 samples.

Results

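CD5 and its paralog CD6 are receptors of the scavenger receptor cysteine-rich family that sit near the T cell receptor (TCR) on the T cell surface. CD5 is known as a brake on TCR signals. When the TCR is engaged, tyrosines in its cytoplasmic tail are phosphorylated and recruit inhibitory proteins such as the ubiquitin ligase CBLB. In naive CD4+ T cells the amount of CD5 follows the strength of the self-peptide signals received in the thymus. An early transcriptional response is led by immediate early factors (NR4A, EGR, FOS, and JUN proteins), NF-kappaB targets, and the feedback phosphatases induced by ERK, and it is followed by cytokines.

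The data described here are 6 of the 36 RNA-seq libraries of a CD5/CD6 experiment, in a series of 54 libraries. They are 3 libraries of Cd5-/- and 3 libraries of WT naive CD4+ T cells after 4 h of stimulation, chosen by genotype and time in the sample labels and by no measured value. The cells came from pooled lymph nodes and spleens of C57BL/6 mice, were enriched magnetically as naive CD4+ T cells, and were cultured for the 4 h on immobilized antibody to CD3 at 3 µg/ml with 1 µg/ml of antibody to CD28 in solution. The question was which genes differ early after activation when CD5 is missing. The Cd5-/- line carries a targeted germline allele that was backcrossed on C57BL/6, so that every cell of the mouse lacks CD5 and thymic development took place without it. The Cd6-/- and Cd5-/-Cd6-/- mice, used below for side by side values, were made by genome editing on C57BL/6. The libraries of a condition are described as independent samples, but the sources used here do not say how many mice contributed to each or whether mice were shared, so the tests measure the spread between these libraries.

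The Cd5-/- libraries held 25364780 to 36915033 counted reads and the WT libraries 30230253 to 41520439. A floor of 3 counts in a library corresponded to 0.0723 to 0.118 CPM (counts scaled to a common library size) and covers counting error only. Mitochondrial genes took 1.76 to 2.59% of the counts in Cd5-/- libraries and 1.90 to 2.36% in WT libraries. Markers of CD4+ T cells were abundant in all 6 libraries, with Cd4 at 586 to 859 CPM and Trac, the TCR alpha constant gene, at 1962 to 2476 CPM. Elsewhere in the experiment, the 0 h library 2 labelled Cd5-/- held Cd5 at 719 CPM and the 0 h library 2 labelled Cd6-/- held Cd5 at 172 CPM, both against their labels. No group mean of 0 h enters the comparison at 4 h, but these libraries contribute to the shared estimate of the spread and, with a replicate block, to its terms. Fold changes also moved slightly without them, for Cd5 from -3.88 to -3.86 on the log2 scale, and from -3.94 to -3.90 with the block. Counts of genes are therefore given with and without them. Same-numbered Cd5-/- and WT libraries deviated together, and values from a fit with the replicate number as a block are given wherever that fit changed a call.

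Cd5 mRNA was low in all 3 Cd5-/- libraries and had the most negative log2 fold change of the genes called. Cd5 (ENSMUSG00000024669.8, GRCm38/mm10 chromosome 19, 10717116 to 10739002, minus strand) was at 94.7, 150.3, and 61.6 CPM in Cd5-/- libraries 1, 2, and 3 and at 1684, 1399.6, and 1447 CPM in the WT libraries. The groups were far apart, and residual Cd5 reads remained in each knockout library at 5.62%, 10.7%, and 4.26% of the same-numbered WT library. The log2 fold change was -3.88 (SE 0.45; adjusted p = 2.27e-06). Here and below, adjusted p are from the quasi-likelihood F-test of edgeR, adjusted by Benjamini and Hochberg's method over 32290 genes. In the Cd5-/-Cd6-/- cells of 4 h, whose deletion runs from within the 5′ end of Cd5 across most of Cd6 and leaves most of the Cd5 gene body in place, Cd5 was at 0.345, 0.376, and 0.525 CPM. The counts are summed over each gene, so the part of the transcript that the residual reads come from is not resolved.

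Cd6 (chromosome 19, 10789341 to 10830058) was at 1245, 1048, and 1133 CPM in Cd5-/- cells and at 1012, 888, and 867 CPM in WT cells. The groups did not overlap, and the Cd5-/- library was the higher in all 3 same-numbered pairs, at 123%, 118%, and 131% of WT. The log2 fold change of 0.31 (SE 0.31) had an unadjusted p of 0.332 in edgeR's test with all libraries. Without the 0 h libraries 2, whose Cd6 levels also go against their labels, it was 0.33 (SE 0.13; unadjusted p = 0.0161 in edgeR's test), and with the block in addition 0.33 (SE 0.10; unadjusted p = 0.00241 and adjusted p = 0.417). Cd6 thus missed the adjusted p in each of these fits, while its SE rested on the doubtful libraries. Alcam, which encodes a ligand of CD6, had a log2 fold change of -0.16.

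**Figure D1:**
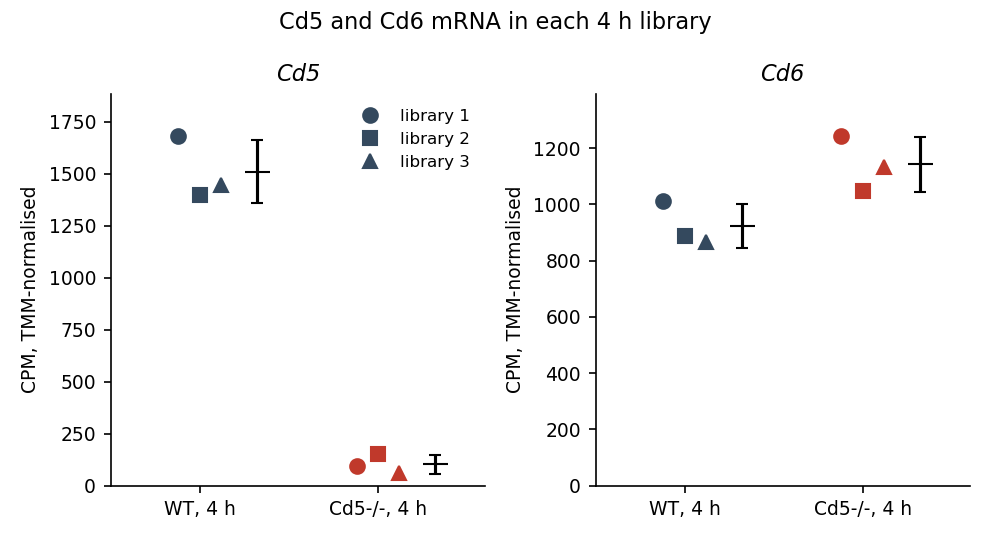
CPM of Cd5 (left) and Cd6 (right) in each 4 h library, with the marker shape giving the library number and the bar the mean and SD of 3 libraries. Cd5 lies between 61.6 and 150.3 CPM in Cd5-/- cells and above 1399 CPM in WT cells, and Cd6 lies somewhat higher in Cd5-/- than in WT cells.

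Apart from Cd5, few genes differed. Taking a more than 2-fold change at an adjusted p under 0.05 as a call, 9 of 32290 genes passed (0.0279%), 5 higher (0.0155%) and 4 lower (0.0124%) in Cd5-/- cells. The fit with the replicate block called 13 genes (0.0403%; 6 higher, 0.0186%, and 7 lower, 0.0217%), including all 9, and 16 genes by the adjusted p alone (0.0496%). Without the 0 h libraries 2 named above, 11 genes passed without the block and 23 with it. Leaving out any of the 6 libraries, or a same-numbered pair, left 2 to 7 genes. Among the 13738 genes that averaged at least 10 counts, the median log2 fold change was -0.01, 88.3% of genes lay within 0.5 of 0 on the log2 scale, and the median SE was 0.21.

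**Figure D2:**
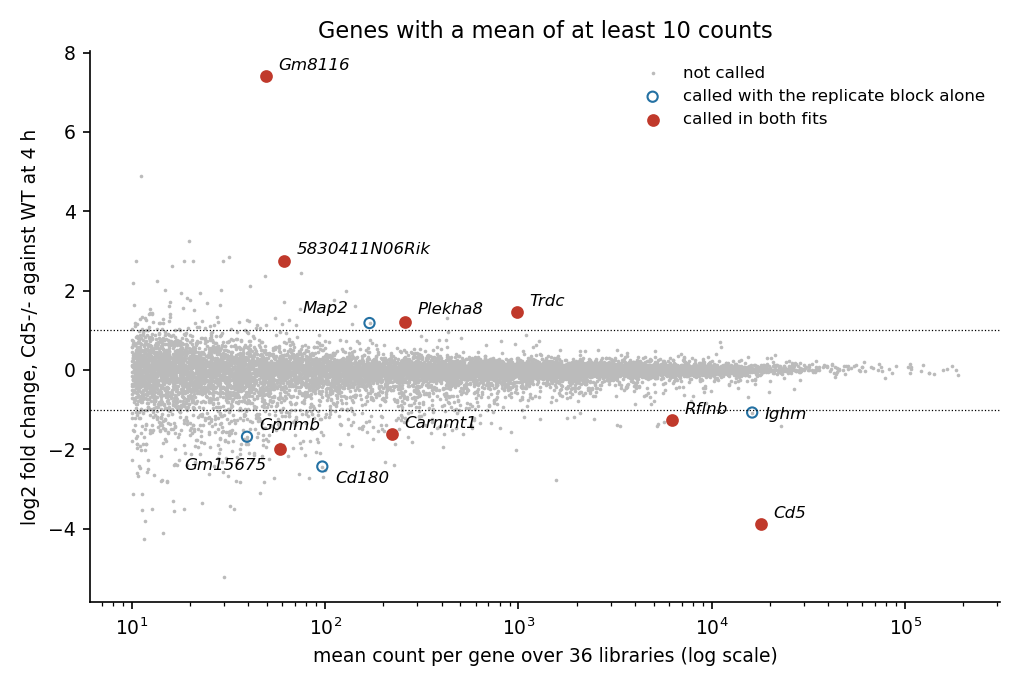
Log2 fold change of Cd5-/- against WT at 4 h for each gene averaging at least 10 counts, against its mean count over the 36 libraries of the experiment on a log scale. Filled points passed both thresholds in both fits, open points with the replicate block alone, and dotted lines mark a 2-fold change. Zfp618, the other called gene, lies just under the count limit and is not drawn.

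Of the 5 genes that were higher, 2 belong to a list of 10 genes of gamma delta T cells, a T cell lineage with its own receptor chains. Trdc, the constant gene of the TCR delta chain (chromosome 14, 54142851 to 54148868), was at 56.0, 49.6, and 55.9 CPM in Cd5-/- cells and at 20.8, 19.5, and 18.7 CPM in WT cells (log2 fold change 1.45, SE 0.28; adjusted p = 0.0296). Each Cd5-/- library was above all WT libraries, and the ratio in same-numbered pairs was 2.69, 2.54, and 2.99. 5830411N06Rik, also named Scart2 and a scavenger receptor of gamma delta T cells that belongs to the same receptor superfamily as CD5 and CD6 (chromosome 7, 140247284 to 140300736), was at 2.56, 2.82, and 3.07 CPM against 0.126, 0.233, and 0.958 CPM (2.76, SE 0.52; adjusted p = 0.0250).

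Gm8116, annotated as a processed pseudogene (chromosome 9, 78820638 to 78821838), was read 203, 175, and 147 times in Cd5-/- libraries and 1 time in each WT library. With its WT level resting on 3 counts, the ratio of CPM was 190.9 with a 95% counting interval of 65.0 to 929 (adjusted p = 1.56e-08). In the other genotypes at 4 h it had 2 to 8 counts in a library. At 0 h the library 2 labelled Cd5-/- had 0 reads of Gm8116, which allows up to 3, the other Cd5-/- libraries had 87 and 83, and the library 2 labelled Cd6-/- had 49. Reads of a processed pseudogene can also match its parent gene, and the treatment of such reads is not given in the sources used here, so this value is uncertain.

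Zfp618, a zinc finger protein gene (chromosome 4, 62965573 to 63139708), was at 2.19, 0.851, and 1.71 CPM against 0.0945, 0.207, and 0.106 CPM, resting on 141 counts against 14 (log2 fold change 3.44, SE 0.64; adjusted p = 0.0184). Plekha8, which encodes a lipid transfer protein of the Golgi (chromosome 6, 54595111 to 54645839), was at 5.94, 4.73, and 5.89 CPM against 2.39, 2.85, and 1.84 CPM (1.21, SE 0.23; adjusted p = 0.0296). The groups did not overlap for either gene. With the block, Map2, a microtubule-associated protein gene, also passed at 18.7, 18.0, and 12.7 CPM against 9.63, 7.25, and 4.86 CPM (adjusted p = 0.0133 with the block and 0.560 without it).

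Of the 4 genes that were lower, Cd5 is described above. Carnmt1, which encodes the carnosine N-methyltransferase, was at 2.62, 2.64, and 4.44 CPM in Cd5-/- cells and at 11.1, 9.19, and 8.90 CPM in WT cells (log2 fold change -1.61, SE 0.29; adjusted p = 0.0214). It lies on chromosome 19 (18670764 to 18707200), 7.93 Mb from Cd5. Of the 248 genes within 10 Mb of Cd5 that averaged at least 10 counts, Carnmt1 was the 1 gene called (0.0582% of all genes with such counts were called, and 0.0873% with the block), and none of the 83 within 2 Mb passed in either fit.

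Gm15675, a long noncoding RNA gene on chromosome 1 (130429781 to 130437191), was at 0.304, 0.528, and 0.470 CPM against 1.13, 2.25, and 1.77 CPM (log2 fold change -2.0, SE 0.41; adjusted p = 0.0471). Rflnb, encoding refilin B, a filamin-binding regulator of actin (chromosome 11, 76019194 to 76027782), was at 28.3, 37.1, and 69.0 CPM against 51.4, 123.5, and 148.3 CPM (-1.27, SE 0.24; adjusted p = 0.0296). For Rflnb the groups overlapped, since WT library 1 lay below Cd5-/- library 3, but the Cd5-/- library was the lower in all 3 same-numbered pairs, at 0.549, 0.300, and 0.465 of WT. In WT cells Rflnb was at 380 to 438 CPM at 0 h and at 29.2 to 37.3 CPM at 20 h.

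The block added 3 genes to those lower in Cd5-/- cells. Ighm, the immunoglobulin mu constant gene, was at 110.4, 114.7, and 134.3 CPM against 222, 168, and 366 CPM (adjusted p = 0.0117 with the block and 0.143 without it). Cd180, a Toll-like receptor homolog of B cells, was at 0.244, 0.323, and 0.384 CPM against 1.45, 1.19, and 2.55 CPM (0.0484 and 0.0790 by edgeR's adjusted p). Gpnmb, a glycoprotein gene of macrophages, was at 0.487, 0.675, and 0.726 CPM against 2.71, 1.32, and 2.06 CPM (0.0133 and 0.0742). The groups did not overlap for any of the 3 genes. Both Cd5 and Gm8116 passed in all 23 alternative fits. Each of the other 7 genes kept its direction in all 23 but missed the adjusted p in 8 (Zfp618 and Rflnb) to 13 (Gm15675) of them. Of the 9 fits that left out a library or a same-numbered pair, Trdc and Plekha8 passed in none. Gm15675 passed only without WT library 1, 5830411N06Rik without pair 3 or WT library 3, and Carnmt1 without pair 3 or Cd5-/- library 3. Zfp618 passed without pair 2, Cd5-/- library 2, or Cd5-/- library 3, and Rflnb without pair 1, WT library 1, pair 3, or Cd5-/- library 3.

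At 20 h, 3 genes passed both thresholds between the same genotypes, with or without the block (0.00929%), and they were Carnmt1, Gm8116, and Cd5, in the same direction as at 4 h. Carnmt1 was at 3.28, 3.52, and 3.66 CPM in Cd5-/- cells at 20 h against 11.6, 13.4, and 12.4 CPM in WT cells (log2 fold change -1.83; adjusted p = 0.00194). In the Cd5-/-Cd6-/- cells of 4 h, which share the WT libraries, Carnmt1 was at 8.70, 7.57, and 11.2 CPM. Trdc was lower at 20 h in both genotypes, at 8.49, 9.37, and 9.12 CPM in Cd5-/- cells against 4.85, 3.69, and 4.00 CPM in WT cells, and the groups did not overlap. Its log2 fold change of 1.10 at 20 h did not pass the adjusted p. Rflnb was at 34.6, 34.3, and 31.1 CPM against 37.3, 35.5, and 29.2 CPM at 20 h, so the groups overlapped. For 5830411N06Rik, 20 h gave 3, 1, and 2 counts in Cd5-/- libraries and 1, 0, and 0 in WT libraries, which is too few to compare.

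A test of the difference in the Cd5-/- effect between 4 h and 20 h called 0 genes, with or without the block, in edgeR (490 genes at an unadjusted p under 0.05, 581 with the block) and 0 in DESeq2 (483 genes at an unadjusted p under 0.05). Cd5 itself had a less negative log2 fold change at 4 h, by 2.60 (unadjusted p = 6.78e-05 in edgeR's test across all genes). That difference passed only without the 0 h libraries 2 (2.62; adjusted p = 1.63e-06) and in edgeR's older setting (adjusted p = 0.00727).

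**Figure D3:**
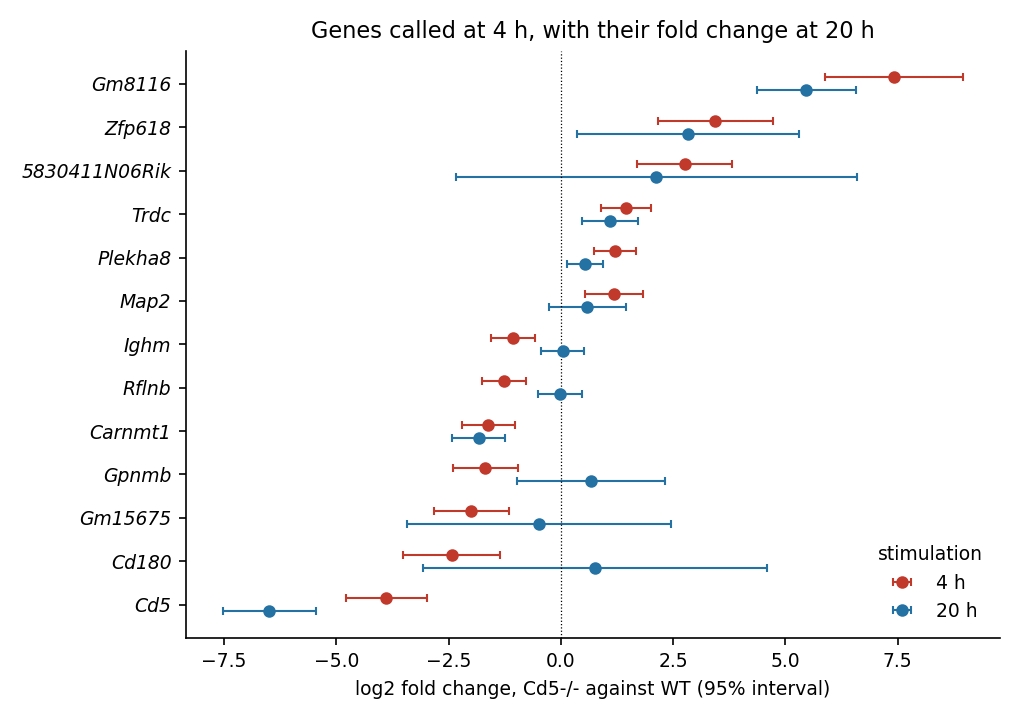
Log2 fold change of Cd5-/- against WT with its 95% interval at 4 h (red) and 20 h (blue) for the 13 genes called at 4 h with or without the replicate block. Carnmt1, Gm8116, and Cd5 lie away from 0 on the same side at both times, Rflnb and Ighm lie near 0 at 20 h, and the intervals of 5830411N06Rik, Cd180, and Gm15675 at 20 h are wide.

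At 4 h, 2 genes were called between Cd6-/- and WT cells (0.00619%) and 13 between Cd5-/-Cd6-/- and WT cells (0.0403%), the latter 28 with the block (0.0867%). All 3 knockouts share the WT libraries. Among the genes called in Cd5-/- cells, Trdc was at 54.6, 74.6, and 52.7 CPM in Cd5-/-Cd6-/- cells (log2 fold change against WT 1.62; adjusted p = 0.00437) and at 13.8, 17.6, and 24.6 CPM in Cd6-/- cells. 5830411N06Rik was at 2.07, 3.01, and 3.97 CPM in Cd5-/-Cd6-/- cells (2.86; adjusted p = 0.00529) and at 0.566, 1.53, and 1.22 CPM in Cd6-/- cells. Both gamma delta genes were thus above WT in each genotype without CD5. In Cd6-/- cells, which keep CD5, the mean of Trdc was 18.7 CPM against 19.7 CPM in WT cells. That of 5830411N06Rik was 1.11 CPM against 0.439 CPM, with overlapping groups. Zfp618 was at 0.0251 to 0.230 CPM in Cd5-/-Cd6-/- cells and at 0.0339 to 0.206 CPM in Cd6-/- cells.

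The whole list of gamma delta T cell genes was then examined. Of its 10 members, 2 passed higher (against 0.0155% of all genes) and none lower, 6 were higher and 1 lower at an unadjusted p under 0.05 (3.06% of all genes tested, in either direction), and the median log2 fold change over all 10 was 1.58, against 0 over all genes tested. The 6 that were higher at the unadjusted p did not overlap between groups (2.74% of genes averaging at least 10 counts were higher without overlap). Tcrg-C2, a constant gene of the gamma chain, was at 2.07, 2.82, and 2.39 CPM in Cd5-/- cells against 0.441, 0.596, and 0.816 CPM in WT cells (log2 fold change 1.99, SE 0.43; adjusted p = 0.0966), and it passed without the 0 h libraries 2. Tcrg-C4 was at 2.80, 3.05, and 2.52 CPM against 0.976, 0.906, and 0.851 CPM (1.62, SE 0.38), and Tcrg-C1 at 1.16, 1.5, and 1.02 CPM against 0.220, 0.181, and 0.284 CPM (2.45, SE 0.62). Tcrg-C1 and Tcrg-C2 are near-identical copies, and how reads were split between them is uncertain.

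Cd163l1, a scavenger receptor of gamma delta T cells, had a fold change of 2.86 on the log2 scale (SE 0.72; adjusted p = 0.328), and it passed with the block without the 0 h libraries 2 (adjusted p = 0.00250). Blk, a kinase that B cells also express, had a fold change of -1.43 on the log2 scale (SE 0.44; adjusted p = 0.781), and Sox13, a factor of gamma delta cells, had one of 0.35 (SE 0.48). The summed level of the list was 69.1, 63.0, and 69.9 CPM in Cd5-/- cells and 30.0, 25.1, and 32.7 CPM in WT cells, with ratios of 2.30, 2.51, and 2.14 in same-numbered pairs. At 20 h the sums were 14.6, 14.5, and 13.0 CPM against 7.58, 5.31, and 5.82 CPM, again without overlap. Trdc alone made up 56.0, 49.6, and 55.9 CPM of the Cd5-/- sums at 4 h and 20.8, 19.5, and 18.7 CPM of the WT sums. It was also most of the sums at 20 h, so the sums mostly repeat Trdc and say little of the other members. The number of members called ranged from 0 with a filter on low counts to 6 in DESeq2 and in edgeR's older setting, with a median between 1.54 and 1.93 in all of the alternatives. In bulk RNA, more or fewer cells of a type and more or less RNA per cell cannot be told apart, here and for the lists that follow.

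Markers of B cells, red cells, and myeloid cells, which an enrichment can carry over, mostly had log2 fold changes below 0. None of 15 B cell genes passed in edgeR's test or in DESeq2, but all 15 were lower in Cd5-/- cells, all 15 at an unadjusted p under 0.05 (9 in DESeq2; 3.06% of all genes tested in edgeR, in either direction), and all 15 had groups that did not overlap (4.36% of genes averaging at least 10 counts were lower without overlap). Their log2 fold changes ran from -1.75 (Fcrla) to -0.85 (Ebf1, a transcription factor of early B cells), with a median of -1.42. Ighm passed with the block (1 of 15, against 0.0217% of all genes). Cd79b, a signaling chain of the B cell receptor, was at 11.4, 12.6, and 18.4 CPM in Cd5-/- cells against 25.3, 20.5, and 80.0 CPM.

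The summed level of the B cell list was 234, 238, and 274 CPM in Cd5-/- cells and 500.2, 344, and 909.9 CPM in WT cells. WT library 3 was the highest, and without it the median log2 fold change was -0.75. At 20 h the sums were 354, 314, and 408 CPM in Cd5-/- cells and 344, 315, and 392.4 CPM in WT cells, so that the groups overlapped. Ighm alone was at 352, 310, and 405 CPM and at 341, 311, and 386 CPM there. The 20 h sums are thus nearly all Ighm and say little of the other list members. The 4 h sums were 351, 466, and 848 CPM in Cd6-/- cells and 497, 695, and 585 CPM in Cd5-/-Cd6-/- cells. The Cd5-/- cells were thus the lowest of the 4 genotypes at 4 h.

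Of 8 erythroid and platelet genes, 0 passed in edgeR or DESeq2 (5 were lower at an unadjusted p under 0.05 in edgeR, against the same 3.06%, and 1 in DESeq2). The summed level of the list, mostly beta and alpha globins, was 230.5, 627, and 779.8 CPM in Cd5-/- cells against 2022, 1090.1, and 1179 CPM in WT cells. The median log2 fold change of -1.37 was -0.54 without the libraries numbered 1. Globin genes are near-identical copies, and their separate values are uncertain. At 20 h the sums were 2.56, 26.2, and 9.21 CPM against 46.5, 14.7, and 9.67 CPM.

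Of 16 myeloid genes, 0 passed in edgeR or DESeq2 (3 lower at an unadjusted p under 0.05 in edgeR, against 3.06% of all genes, and 1 in DESeq2), and their sum was 71.5, 86.4, and 82.9 CPM against 102, 89.6, and 127 CPM. S100a9, a neutrophil calcium-binding protein gene, was at 1.61, 0.528, and 2.18 CPM against 10.9, 1.42, and 8.66 CPM and overlapped between groups. Mpeg1, a macrophage perforin gene, was at 2.01, 6.43, and 3.93 CPM against 8.00, 6.78, and 15.2 CPM. The sum over 10 genes of CD8+ T and NK cells was 78.4, 82.8, and 94.6 CPM against 76.4, 88.7, and 98.6 CPM, and overlapped. Cd8a was at 1.70, 1.64, and 3.50 CPM against 2.96, 2.54, and 11.4 CPM (log2 fold change -1.31, adjusted p = 1). The part of these other cells in the genes called above was not tested. The gamma delta sum lay above WT, on the opposite side from the B cell, erythroid, and myeloid sums.

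**Figure D4:**
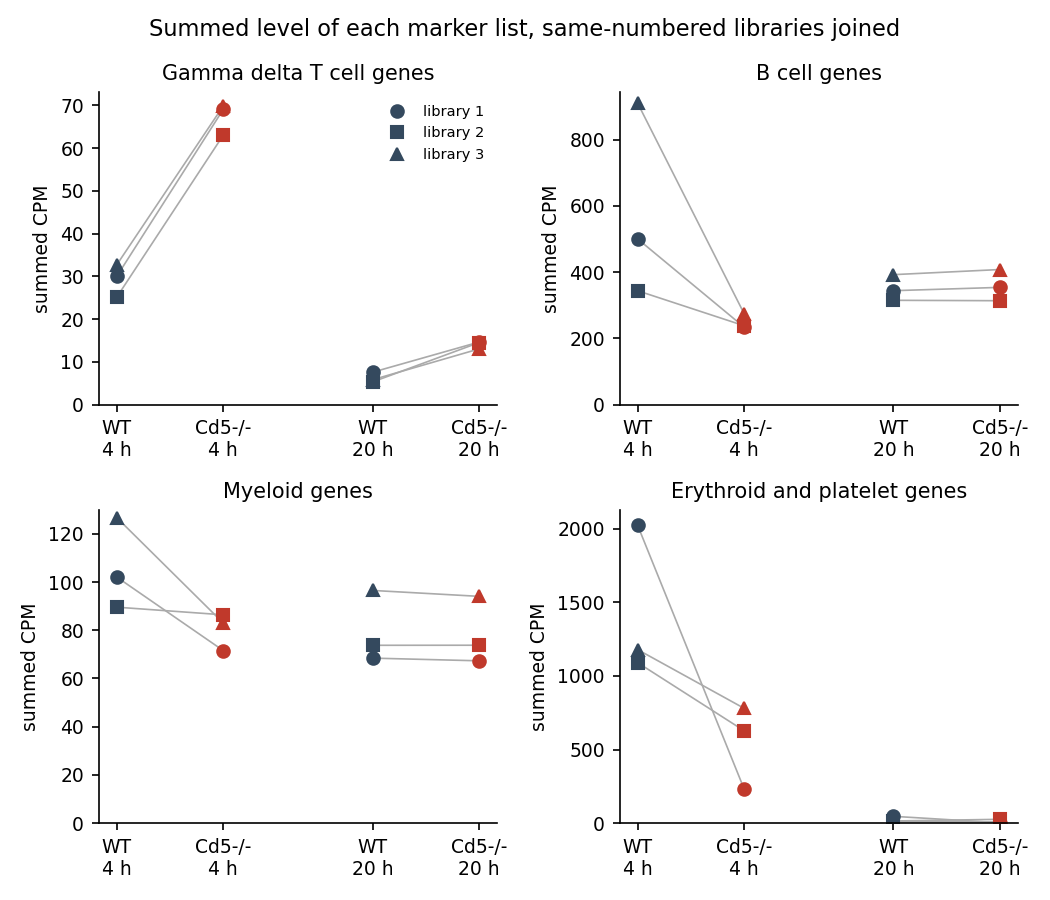
Summed CPM of 4 marker lists in WT (dark) and Cd5-/- (red) libraries at 4 h and 20 h, with gray lines joining libraries of the same number. The gamma delta sum, mostly Trdc, is higher in Cd5-/- cells at both times, whereas the B cell, myeloid, and erythroid sums are lower at 4 h and overlap at 20 h. The B cell sum at 20 h is nearly all Ighm.

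Genes of TCR signaling and activation, which make up most of the other lists, did not pass. Across 20 lists with 237 different genes, 0 passed in edgeR's test with or without the block and 0 in DESeq2, and 6 were higher and 11 lower at an unadjusted p under 0.05. Among the 233 of them averaging at least 10 counts, the median log2 fold change was 0.01. Of these 233, 6.87% were under that unadjusted p, against 4.85% of all genes with such counts.

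Among 19 genes of the TCR complex and proximal signaling, the log2 fold changes ran from -0.44 to 0.30 with a median of 0.06. Themis, an adaptor of TCR signaling, had the smallest unadjusted p and was at 23.1, 24.3, and 29.5 CPM in Cd5-/- cells against 25.9, 36.2, and 40.3 CPM in WT cells (-0.42, SE 0.19; adjusted p = 1). Grap2, which encodes the adaptor GADS, was at 88.3, 96.6, and 82.3 CPM against 99.1, 139.6, and 112.4 CPM without overlap (-0.39, SE 0.21; adjusted p = 1). The study recovered partners of CD5 as proteins, and a list of 4 of them, not the whole set, was close to WT in mRNA. Cblb was at 841, 935, and 815.5 CPM against 805, 883, and 719 CPM (0.11, SE 0.14), and the 4 genes of that list lay between -0.06 and 0.11.

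In the list of 23 negative regulators of TCR signaling, 19 had a log2 fold change above 0, and 2 were higher at an unadjusted p under 0.05. Of all genes averaging at least 10 counts, 4.85% were under that p in either direction, and their median log2 fold change was -0.01. Sla, which encodes the Src-like adaptor SLAP that lowers TCR levels, was at 1338, 1393, and 1506 CPM against 1062, 1076, and 1150.4 CPM (0.37, SE 0.12; adjusted p = 0.955, and 0.199 with the block). Ptpn6, which encodes the phosphatase SHP-1, was at 494, 421, and 391 CPM against 385, 305, and 307 CPM (0.39, SE 0.13; adjusted p = 0.979, and 0.524 with the block). Neither gene overlapped between groups and neither passed. In this list 3 of 23 genes were higher without overlap, against 2.74% of genes averaging at least 10 counts. The summed level of the list was 8457, 8137, and 7699 CPM in Cd5-/- cells against 7839.9, 7593, and 6940.2 CPM in WT cells, with ratios of 1.08, 1.07, and 1.11 in same-numbered pairs, and the summed ranges overlapped.

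None of the immediate early factors passed. The 17 averaging at least 10 counts had log2 fold changes from -0.80 to 0.20 with a median of -0.05, and none of the 18 was under an unadjusted p of 0.05 in edgeR without the block (1 with it). Nr4a1, a sensitive reporter of TCR signal strength, had a log2 fold change of 0.02, Egr1 one of -0.12, and Egr2 one of -0.05. Fosb, a subunit of AP-1, had the lowest, at 12.2, 23.8, and 22.9 CPM against 18.8, 49.9, and 33.6 CPM (-0.80, SE 0.84), and was lower in 3 of 3 same-numbered pairs with overlapping groups. Myc was at 898, 1111, and 996 CPM in Cd5-/- cells and at 1121, 1425, and 1084 CPM in WT cells (-0.27, SE 0.16). The 14 NF-kappaB genes lay between -0.15 and 0.14, and Nfkbid, an atypical inhibitor of NF-kappaB, was at 737, 944, and 542 CPM against 600.8, 835, and 588 CPM. The 11 ERK feedback genes had a median of 0.14. Spry4, an inhibitor of ERK signaling, was at 7.25, 4.49, and 6.19 CPM against 5.57, 3.6, and 3.83 CPM (0.46, SE 0.23), the 1 member of that list under an unadjusted p of 0.05. Dusp6, a phosphatase of ERK, was at 246, 239, and 230.5 CPM against 195, 163, and 249.6 CPM.

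Activation markers did not pass either. The log2 fold changes of the 11 genes ran from -0.70 to 0.36 with a median of 0.02, with 7 above 0 and 4 below it. In edgeR's test 2 were higher and 1 lower at an unadjusted p under 0.05. Of all genes averaging at least 10 counts, 4.85% were under that p in either direction. Cd69 had a log2 fold change of 0.10 and Tnfrsf4, which encodes OX40, one of 0.30. Icos, a costimulatory receptor gene, was at 27.3, 18.9, and 18.9 CPM in Cd5-/- cells against 20.4, 13.5, and 17.0 CPM (0.36, SE 0.17; adjusted p = 1). For Icos the Cd5-/- library was the higher in all 3 same-numbered pairs, but the groups overlapped.

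Over all genes averaging at least 10 counts, the median log2 fold change was -0.01 and 4.85% were under an unadjusted p of 0.05, in either direction. Of 15 genes of naive and quiescent T cells, 12 had a log2 fold change below 0 and 1 was under that p. This was Il7r, the receptor of the survival cytokine IL-7, at 99.5, 130.2, and 190.3 CPM against 133, 287, and 328 CPM (-0.83, SE 0.24; adjusted p = 0.688, and 0.311 with the block). The Cd5-/- library was the lower in each pair, at 0.749, 0.454, and 0.580 of WT, and WT library 1 lay within the range of the Cd5-/- libraries. Tcf7, which encodes TCF-1, was at 328, 258, and 301 CPM against 312, 386, and 352 CPM.

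Cytokine genes were spread more widely than the signaling genes, with a median log2 fold change of 0.22 over the 15 averaging at least 10 counts. Il2 had a log2 fold change of -0.12 and Tnf one of 0.05. Il21, a cytokine of follicular helper cells, was at 3.59, 4.64, and 5.93 CPM against 2.61, 3.31, and 3.09 CPM without overlap (0.64, SE 0.37; adjusted p = 1). Among chemokines, Ccl3 was at 30.5, 50.3, and 55.6 CPM against 18.7, 25.9, and 37.9 CPM, higher in 3 of 3 pairs (0.73, SE 0.49). Ccl22 was at 4.75, 7.90, and 4.65 CPM against 11.3, 7.35, and 10.7 CPM (-0.75, SE 0.46).

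Genes of regulatory T cells were mixed. Foxp3, their defining factor, was at 11.8, 16.3, and 6.02 CPM against 16.0, 11.0, and 8.20 CPM. Nrp1, a semaphorin coreceptor of thymus-derived regulatory T cells, was at 6.21, 7.72, and 5.34 CPM against 14.4, 16.2, and 12.4 CPM (-1.15, SE 0.31; adjusted p = 0.602), and it passed with the block without the 0 h libraries 2 (adjusted p = 0.00943). Izumo1r, which encodes folate receptor 4 and is also among the genes that vary with CD5 level on naive cells, was at 388, 252, and 303 CPM against 282, 187, and 247 CPM (0.40, SE 0.18; adjusted p = 1). The 6 genes of that self-reactivity list had a median log2 fold change of 0.21.

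Interferon-stimulated, cell cycle, and stress genes gave no calls. Of 17 interferon-stimulated genes 13 were below 0, with a median of -0.31, and Rsad2, an antiviral enzyme gene, was at 3.53, 5.02, and 5.42 CPM against 15.6, 6.53, and 5.71 CPM. Of the 14 growth and cell cycle genes, 11 had a log2 fold change below 0 and 3 were lower at an unadjusted p under 0.05, with a range of -1.63 (Mki67, a gene of dividing cells) to 0.09 and a median of -0.09. Over all genes averaging at least 10 counts, the median was -0.01 and 4.85% were under that p, in either direction. The summed level of the growth and cell cycle list was lower in 3 of 3 same-numbered pairs, at 0.941, 0.912, and 0.981 of WT. Ccne1, the cyclin E1 gene, was at 0.700, 0.763, and 1.49 CPM against 1.92, 1.5, and 1.10 CPM. The 13 stress and dissociation genes had a median of -0.02. Checkpoint receptors (8 genes), helper lineage factors (9), and memory and effector genes (17) had medians of 0.08, 0.04, and -0.15, and CD6 partners (9 genes) one of -0.01.

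**Figure D5:**
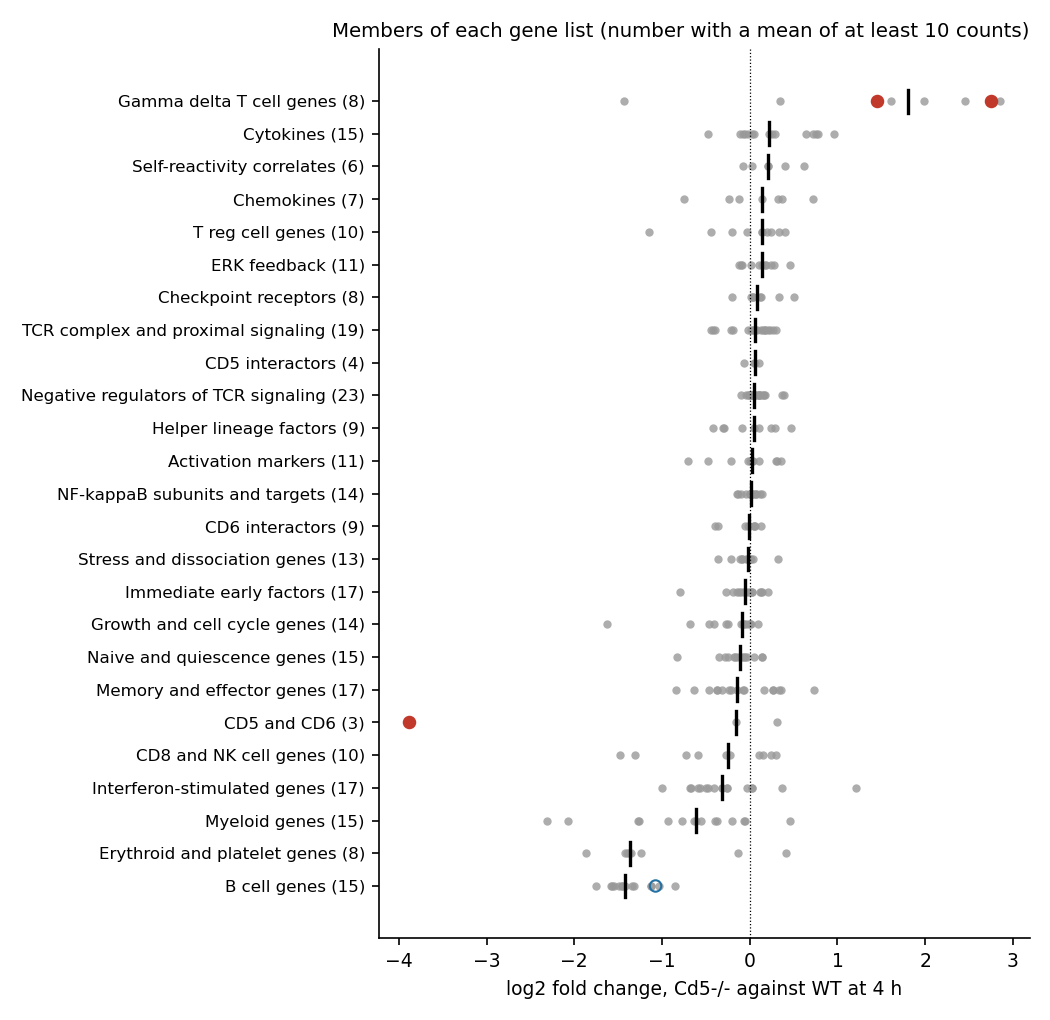
Log2 fold change of Cd5-/- against WT at 4 h for each member averaging at least 10 counts of 25 gene lists, ordered by the median (black bar). Filled red points passed the adjusted p in both fits and the open blue point with the replicate block alone. Gamma delta genes lie mostly above 1 and B cell genes all below -0.8, whereas the signaling and activation lists center near 0.

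A score of the response to stimulation, the mean log2 CPM of 2349 genes that rise minus that of 2652 genes that fall in the WT cells of the separate LAT experiment, summarized activation as a whole. It was 3.06, 2.89, and 3.02 in Cd5-/- cells and 3.03, 2.76, and 2.75 in WT cells at 4 h. Cd5-/- cells were higher in 3 of 3 same-numbered pairs and stood at 104% of the rise in WT cells. The groups overlapped, and the difference was 0.14 (exact permutation test without pairing, two-sided p = 0.30). With 3 against 3 libraries this test cannot give a p below 0.10, so it decides nothing about a difference of this size. The genes that rise had a median log2 fold change of -0.0004 and those that fall one of -0.11.

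Of the 9 genes called in Cd5-/- cells, the 5 higher included 0 that rise and 1 that falls on stimulation of WT cells between 0 h and 4 h, where 8.55% of all genes rose and 11.7% fell. The 4 lower, Cd5 among them, included 2 that rise and 2 that fall. The WT libraries of 4 h enter both comparisons, so these counts are tied to the calls and nothing is concluded from them.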

How the data were processed

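The authors aligned stranded single-end mRNA reads to GRCm38/mm10 with STAR and counted them per gene with featureCounts, and the deposited values are raw counts, 1 column per library, with the gene length beside them. The annotation release and the strand and multiple-mapping settings are not given in the sources used here. All 36 count columns were assigned from the labels, and 0 were left unused. Of 55385 gene identifiers, 54487 matched GENCODE M21 with their version and 657 without it.

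The tests were run with edgeR 4.0.16 in R 4.3.3 (glmQLFit and glmQLFTest), keeping genes with at least 1 read in total, with TMM factors, a coefficient for each of 12 groups, all 36 libraries, and Benjamini-Hochberg adjustment. CPM are TMM-normalised. The adjusted p of 0.05 follows the paper's methods, and the fold change of 2 is one the paper used for stimulated against unstimulated cells. On simulated counts of 30622 genes, 200 of them changed, edgeR's older quasi-likelihood setting made 117 false calls (44 with the block). Its newer setting made 11 (9 with the block). These false calls were counted by the adjusted p alone, without the fold change threshold. The newer setting was therefore used and the older one kept as an alternative, after the data were seen. No replicate effect was simulated, so the false calls with the block do not show how it performs on paired libraries. DESeq2 1.42.0 was a further alternative.

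Same-numbered Cd5-/- and WT libraries correlated in their deviations from the group means over 13738 genes (r = 0.157, 0.411, and 0.364), and other pairs from -0.382 to -0.0199, so the numbers in the labels were taken as pairs. No 2 libraries of a group were copies (chi-square per degree of freedom 34.3 to 70.0). The score used a prior count of 2.

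The genes named were Cd5 and Cd6, those past both thresholds in either fit, those past the adjusted p within 10 Mb of Cd5, and of each list the members past the adjusted p or, failing that, the 2 with the smallest unadjusted p. Further list members were named after their values were seen. The comparison, the 26 lists, and the rule were chosen with earlier results of these data known. Some genes that this rule or the lists would name are not reported here.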

Additional observations from a re-analysis of the deposited data

Results flagged for a closer look

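The log2 fold change of Cd5 in Cd5-/- against WT cells was less negative at 4 h than at 20 h by 2.62 when the 0 h libraries 2 labelled Cd5-/- and Cd6-/- were left out, and the test of this difference then passed (adjusted p = 1.63e-06, edgeR's quasi-likelihood test). With all 36 libraries it was 2.60 and did not pass. Cd5 was at 94.7, 150.3, and 61.6 CPM in Cd5-/- libraries at 4 h and at 12.5, 13.9, and 11.4 CPM at 20 h, against 1684, 1399.6, and 1447 CPM and 1004, 1257, and 1139.6 CPM in WT libraries. The residual reads were lower at 20 h in all 3 libraries.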

How the results depend on the processing

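Compared with 9 genes called, the count was 4 with a filter on low counts, 3 with the 6 libraries alone, 16 in DESeq2, and 24 in edgeR's older setting. With the replicate block, which gave 13 with all libraries, it was 33 with the 12 libraries of 4 h, 38 with the 6 libraries, 23 without the 0 h libraries 2, 79 in the older setting, and 16 by the adjusted p alone. Leaving out libraries gave 2 to 7 genes, the fewest without Cd5-/- replicate 1 or WT replicate 2. The difference between 4 h and 20 h called 1 gene, Cd5, in the older setting or without the 0 h libraries 2. For the other knockouts of 4 h, the block gave 4 genes (Cd6-/-) and 28 genes (Cd5-/-Cd6-/-). A window of 2 Mb around Cd5 held 0 called genes.

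Of the gamma delta genes, 1 was called without TMM factors, with the 6 libraries, or with the 12 of 4 h, 0 with the filter, 6 in the older setting (with or without the block) and in DESeq2, and, with the block, 6 in the 12 libraries, 5 in the 6 libraries, and 4 without the 0 h libraries 2. Leaving out libraries gave 0 to 1. Of the B cell genes, the block called 1 (also with the filter), 4 in the 12 libraries, 3 in the 6 libraries, 2 without the 0 h libraries 2, and 10 in the older setting, which called 1 without the block. Without the 0 h libraries 2, the block also called 1 T reg cell gene, Nrp1, and in the older setting it called 2 erythroid genes. With all 36 libraries in the newer setting, it changed no call of a list other than that of Ighm.

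Leaving out libraries turned the sign of the log2 fold change of Nfkbid (-0.052 to 0.33), Havcr2 (-0.13 to 0.82), and Xist (-0.14 to 0.36), none of which was called. The cause was not tested in any case. The score difference stayed between 0.08 and 0.20. Depth limits the genes near the floor of 3 counts. The older setting, the block without the 0 h libraries 2, the block for the other comparisons, and the lists under each alternative were chosen after seeing the data.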

Other observations

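With the replicate block and without the 0 h libraries 2, the genes called further included Trdv1, a variable segment of the TCR delta chain (log2 fold change 1.14), Npas2, a circadian transcription factor (1.75), and Wdfy1 (1.33) among those higher in Cd5-/- cells. Those lower included Syk, a kinase of B cell receptor signaling (-1.33), and the neutrophil granule genes Lcn2 (-2.87) and Ngp (-2.72). Their choice followed from their values.

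At 0 h, Trdc was at 62.4, 22.9, and 69.5 CPM in the libraries labelled Cd5-/-, at 21.5, 59.0, and 36.2 CPM in those labelled Cd6-/-, and at 26.2, 23.8, and 23.4 CPM in WT libraries. Zfp618 had 29, 0, and 84 counts in the libraries labelled Cd5-/- and 3, 20, and 0 in those labelled Cd6-/-.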
